A study of Arabidopsis thaliana with 2 samples.

Results

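The 10 genes described here encode NAC transcription factors that are known for leaf senescence and stress responses in Arabidopsis thaliana. They are NAP, ORE1, ORS1, NAC055, NAC019, RD26, ATAF1, ATAF2, JUB1 and VNI2, chosen by locus identifier from the 33557 loci of the expression table, and all 10 were present in it. RNA-seq of leaves had been done with 1 library from wild type plants of ecotype Columbia and 1 library from Atclb1-1 plants of the same age, 2 weeks, grown under a 16-h photoperiod at 23 °C by day and night. Atclb1-1 is a homozygous T-DNA knockout of AtCLB, a gene for a calcium-dependent lipid-binding protein, and is the only allele named. The sources used here do not give the number of plants pooled or the hour of harvest. AtCLB itself (AT3G61050) read 39.2 FPKM in wild type against 13.5 FPKM in the Atclb1-1 library, so transcript was still counted at the disrupted locus, and the library is called the Atclb1-1 library below because that is its label.

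NAC proteins are a plant family named after NAM, ATAF and CUC. They bind DNA through a conserved amino-terminal domain and act on transcription through a variable carboxy-terminal part. In an ageing leaf, NAP, ORE1 and ORS1 promote senescence, the orderly breakdown of chloroplasts and export of nutrients, and are fed by ethylene, abscisic acid and age. NAC019, NAC055 and RD26 respond to drought, abscisic acid and jasmonate, ATAF1 and ATAF2 to wounding and abscisic acid, while JUB1 and VNI2 are known to delay senescence.

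Levels are in FPKM, fragments per kilobase of transcript, scaled by the mapped fragments of the library, which allows levels of different genes to be compared. A fold is the quotient of the 2 FPKM levels of a gene. Where a difference on the log2 scale is given, it is log2 of mutant FPKM + 1 over wild type FPKM + 1, which understates the difference of low genes. Where a pair of levels is given without library names, wild type comes first. With 1 library per genotype there is no spread between replicates, so no difference below has a test or a replicate check. In whole leaves, fewer cells of a type and less RNA per cell cannot be told apart.

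Of the 10 NAC genes, 7 had a level in the Atclb1-1 library that was higher by 2-fold or more on the log2 scale just defined, and none was lower by as much. The filter of 1 FPKM in either library left 18171 loci, all 10 genes included, and of these 17.2% were that much higher and 10.8% that much lower. Higher loci made up 61.5% of these calls, and 50.7% once the median ratio of the 11724 loci that reached 5 FPKM in each library was set to 0, where the count of 7 did not change. The 10 genes had a median log2 difference of 1.66, against 0.21 for all loci that passed the same filter. NAP, NAC055 and RD26 were also higher by 4-fold or more, and none of the 10 was lower by that much, against 5.29% of loci higher and 2.64% lower at that mark. NAC055, at 0.533 FPKM in wild type, passed the filter only through the Atclb1-1 library, where it is high. The shares of 17.2% and 10.8% also stand beside each 2-fold count of listed genes below. The 3 genes short of the 2-fold mark were ATAF1, ATAF2 and ORE1.

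**Figure D1:**
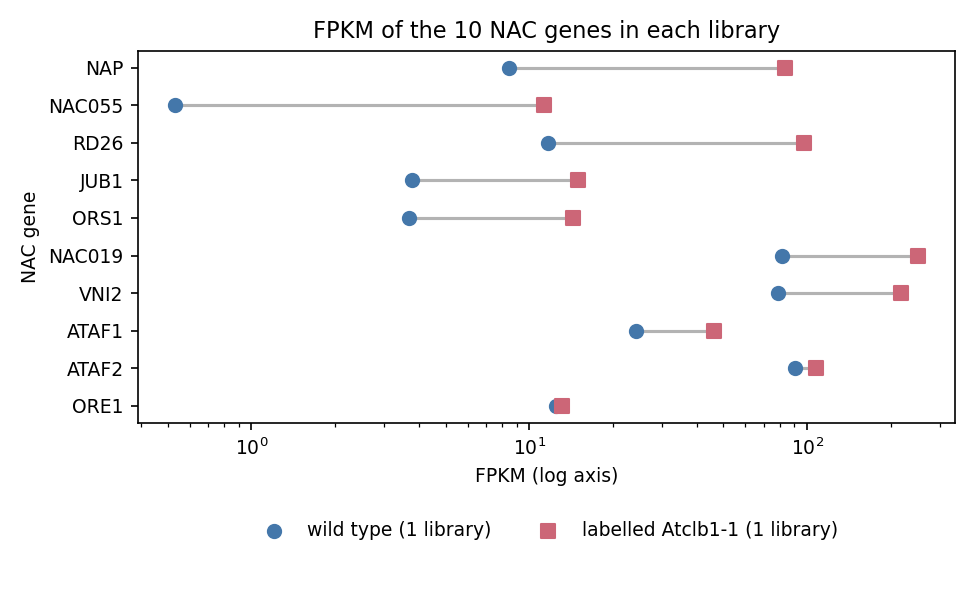
FPKM of each NAC gene on a log axis, with circles for the wild type library and squares for the Atclb1-1 library, ordered by the log2 difference. NAC055 spans the widest interval, from 0.533 to 11.3 FPKM, and the symbols of ORE1, at 12.5 and 13.1 FPKM, nearly coincide.

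In wild type the order of levels ran from ATAF2, NAC019 and VNI2 at the top (90.4, 80.9 and 78.4 FPKM) through ATAF1 to ORE1, RD26 and NAP, and ended with JUB1, ORS1 and NAC055. In the Atclb1-1 library the order was NAC019, VNI2, ATAF2, RD26, NAP, ATAF1, JUB1, ORS1, ORE1 and NAC055. NAC019, VNI2 and ATAF2 thus held the first places and NAC055 the last in both, while RD26 and NAP moved above ATAF1, and ORE1 went from place 5 to place 9. Whether neighbours in either order differ beyond their spread cannot be said without replicates. The highest member stood 170-fold above the lowest in wild type and 22.2-fold above it in the Atclb1-1 library. Summed over the 10 genes, the level was 315 FPKM in wild type against 855 FPKM in the Atclb1-1 library, or 34.4% and 43.1% of the summed FPKM of the 115 annotated NAC loci in the table.

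**Figure D2:**
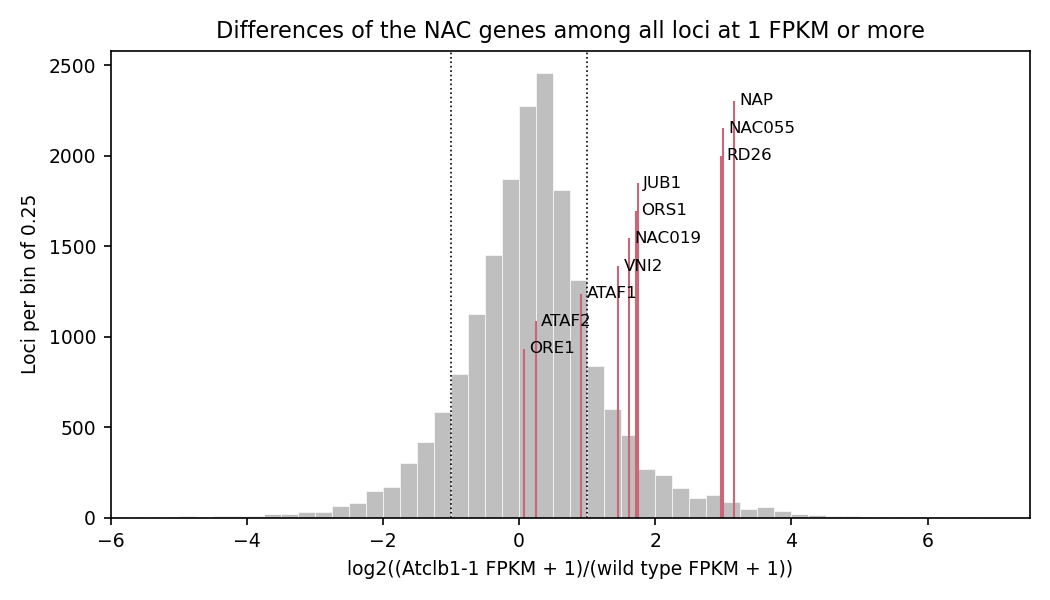
Number of loci per bin of 0.25 of the log2 difference (grey bars), for the loci kept by the filter, with a red line at each NAC gene (line height carries no value) and dotted lines at 2-fold. ORE1 and ATAF2 lie in the body of the distribution at 0.07 and 0.25, and NAP, NAC055 and RD26 lie in its upper tail between 2.96 and 3.15.

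NAP (AT1G69490, also NAC029; TAIR10.1 chromosome 1, 26122080 to 26123514, plus strand, 3 exons) is a promoter of leaf senescence that raises abscisic acid synthesis. It read 8.46 FPKM in wild type against 82.9 FPKM in the Atclb1-1 library, a 9.80-fold higher value and a log2 difference of 3.15. That stood at percentile 98.5 of all loci that passed the filter. It was the highest log2 difference of the 10 genes at a pseudocount of 1, but NAC055 was higher with a pseudocount of 0.1 (4.17 against 3.28) and RD26 was higher with the length and GC trend removed (2.92 against 2.84). In wild type its level ranked 10345 among all loci of the table, and in the other library 1894.

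Genes of the abscisic acid branch linked to NAP and ATAF1 were higher beside it, with 4 of 4 higher by 2-fold or more and a median log2 difference of 1.40. AAO3, which makes abscisic acid from its aldehyde and is a known NAP target, read 6.40 FPKM in wild type against 17.1 FPKM in the Atclb1-1 library. SAG113, a protein phosphatase gene also known as HAI1 and a known NAP target, read 2.05 and 38.6 FPKM. NCED3, the rate-limiting step of abscisic acid synthesis under drought and a known ATAF1 target, read 12.9 and 28.8 FPKM. ABCG40, which encodes an importer of abscisic acid, read 4.25 and 13.9 FPKM. All 4 were thus higher, SAG113 by 18.8-fold and the other members by less than 4-fold.

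Chlorophyll breakdown genes were mixed. Of the 7 listed, all measured, 2 were higher by 2-fold or more and 1 lower, and their median log2 difference was 0.41. NYE1 and NYE2, the stay-green genes that start the removal of magnesium from chlorophyll, were the higher members. NYE1 read 22.9 FPKM in wild type against 85.1 FPKM in the Atclb1-1 library, and NYE2 read 5.64 and 34.4 FPKM. NYC1, a chlorophyll b reductase gene, went the other way at 318 and 122 FPKM. PPH, for pheophytinase, read 75.4 and 106 FPKM, and PAO (here under the annotated name ACD1), for the oxygenase that opens the ring, NOL and ACD2 also stayed within 2-fold.

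ORE1 (AT5G39610, also NAC092; TAIR10.1 chromosome 5, 15858398 to 15859911, minus strand) promotes age-dependent cell death downstream of ethylene. It read 12.5 FPKM in wild type against 13.1 FPKM in the Atclb1-1 library, a ratio of 1.05. The log2 difference was 0.07, at percentile 42.7 of loci, and turned to -0.12 when the median ratio of those 11724 loci was set to 0. Its closest relative ORS1 (AT3G29035, also NAC059; TAIR10.1 chromosome 3, 11033665 to 11035308, plus strand), whose coding sequence is 68.8% identical to that of ORE1, read 3.68 and 14.4 FPKM, a 3.90-fold higher value. ORS1 was below ORE1 in wild type and above it in the other library.

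ORE1 messenger RNA is cleaved under the guidance of miR164, a microRNA that falls with leaf age, so the miRNA and its sites are shown as the known feature that separates ORE1 from the rest of the set. The mature sequences were read from TAIR10.1 at the positions of the RefSeq annotation, in DNA letters, 5′ to 3′, with the seed (bases 2 to 8) in capitals. The mature miRNAs of MIR164A and MIR164B are identical, and that of MIR164C differs in the last base.
miR164a and miR164b: tGGAGAAGcagggcacgtgca
miR164c: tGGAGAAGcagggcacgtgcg

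The sites below are the stretches of 21 bases in NAC transcripts that best complement miR164a, with at most 4 mismatches and G:U pairs counted as mismatches. Bases that pair with miR164a are in capitals, and all lie in coding exons. They were found in 7 of 115 NAC transcripts, and in 13 (0.0396%) of 32802 transcripts scanned.
ORE1 (chr5:15858797-15858817, minus strand): ctCACGTGaCCTGCTTCTCCg
NAC1 (chr1:20947142-20947162, minus strand): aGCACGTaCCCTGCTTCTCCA
NAC080 (chr5:2436958-2436978, plus strand): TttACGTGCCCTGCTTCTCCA
NAC100 (chr5:24701687-24701707, minus strand): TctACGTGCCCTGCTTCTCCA
CUC1 (chr3:5111137-5111157, plus strand): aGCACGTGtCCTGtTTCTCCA
CUC2 (chr5:21902301-21902321, minus strand): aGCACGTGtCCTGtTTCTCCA
AT3G12977 (chr3:4145631-4145651, plus strand): aGCAtGTaCCCTGCTTCTCCA

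ORE1 was the only one of the 10 genes with a site under that limit. The best stretch in ORS1 had 6 mismatches, and those of the other 8 genes had 8 to 10. Sites did not go with one level of difference among the listed genes. NAC1, which acts in auxin-dependent root branching and has 2 mismatches to miR164a, read 4.39 FPKM in wild type against 21.4 FPKM in the Atclb1-1 library. NAC080 read 1.13 and 4.19 FPKM and NAC100 0.703 and 1.08 FPKM. CUC1 and CUC2, which set organ boundaries, were at 0.073 and 0 FPKM for CUC1 and at 0 in both libraries for CUC2. The 3 MIR164 precursor loci were listed at 0 in both libraries, and mature miRNA was not measured, so the level of miR164 is not known here.

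Known direct targets of ORE1 were split. Of 5, 2 were higher by 2-fold or more and 1 was lower, against 17.2% higher and 10.8% lower among all loci that passed. On the log2 scale the median difference was 0.96. SWEET15, a sucrose exporter gene also called SAG29, read 0.0519 FPKM in wild type against 12.5 FPKM in the Atclb1-1 library, and ACS2, for an ethylene synthesis enzyme, read 0.808 and 7.36 FPKM. Both of these higher genes passed the filter only through the Atclb1-1 library. The nuclease gene BFN1, used as a readout of ORE1 activity, read 1.76 and 1.41 FPKM. RNS3, a ribonuclease gene, was lower at 6.71 and 2.61 FPKM, and AT3G13672, listed as SINA1, read 1.97 and 4.77 FPKM. GLK1 and GLK2, chloroplast-maintaining factors that the ORE1 protein binds, read 156 and 222 FPKM and 49.2 and 135 FPKM.

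Of 14 regulators upstream of ORE1 or of the NAC019 group, 13 passed the filter, 6 were higher by 2-fold or more and 2 lower. The median log2 difference was 1.00. The 4 farthest apart belong to the clock or the jasmonate pathway. CCA1, a clock factor known to repress ORE1, read 7.39 FPKM in wild type against 162 FPKM in the Atclb1-1 library. PRR9, a clock gene known to activate ORE1, read 5.04 and 53.7 FPKM. MYC4, a jasmonate-responsive factor, read 5.46 and 25.7 FPKM. ELF3, of the evening complex, was the lowest at 29.7 and 8.12 FPKM. Of the ethylene factors EIN3 and EIL1, which activate ORE1, EIN3 read 71.9 and 120 FPKM and EIL1 was lower at 44.4 and 14.2 FPKM. Clock genes thus differed between the libraries in both directions beside the NAC genes, and the part of harvest time in the NAC values was not tested.

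For the stability of the ORE1 protein, 4 genes were listed. PHO2, the ubiquitin-conjugating enzyme gene that works with NLA against ORE1, was 3.69-fold higher at 159 FPKM in the Atclb1-1 library. NLA read 4.67 and 3.28 FPKM, UBP12 37.8 and 57.1 FPKM, and UBP13 23.7 and 30.9 FPKM. UBP12 and UBP13 encode deubiquitinases that stabilise ORE1, and both were within 2-fold.

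NAC019, NAC055 and RD26 form one branch of the family. NAC019 (AT1G52890; TAIR10.1 chromosome 1, 19696923 to 19698482, minus strand) and NAC055 (AT3G15500; chromosome 3, 5234457 to 5236196, plus strand) have coding sequences of 954 bases each that are 76.3% identical, and RD26 (AT4G27410, also NAC072; chromosome 4, 13707192 to 13709170, minus strand) is 65.7% identical to NAC019. NAC019 read 80.9 FPKM in wild type against 250 FPKM in the Atclb1-1 library, 3.09-fold higher and the highest level of the set in that library. RD26 read 11.6 and 97.5 FPKM, an 8.38-fold higher value. NAC055 read 0.533 and 11.3 FPKM, a ratio of 21.1, the largest of the set, from a wild type value worth roughly 12 to 13 fragments. All of these relatives were higher in the same library, from wild type levels that ran from 0.533 to 80.9 FPKM.

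Of 9 genes linked to NAC019, NAC055 and RD26, 8 were higher by 2-fold or more and none lower, and their median log2 difference was 2.19. Among all loci that passed, 17.2% were that much higher and 10.8% that much lower, with a median of 0.21. The list pools genes that these factors activate with a gene that they repress, so its count is not a measure of their activity. BSMT1, which methylates salicylic acid and is activated by these factors, read 0.516 FPKM in wild type against 102 FPKM in the Atclb1-1 library. It passed the filter only through the latter. VSP1 and VSP2, vegetative storage protein genes of the jasmonate response, read 2.41 and 98.4 FPKM and 21.7 and 660 FPKM. LKR/SDH, the first enzyme of lysine breakdown and a known RD26 target, read 2.98 and 52.2 FPKM. PPDK, for a pyruvate-converting enzyme of nitrogen remobilisation, read 75.7 and 289 FPKM, and its link to these factors could not be checked in the sources used here. ERD1, a chloroplast protease regulator whose promoter NAC019, NAC055 and RD26 bind, read 95.9 and 218 FPKM. ICS1, a salicylic acid synthesis gene that the same factors repress, was the member short of 2-fold, at 10.9 and 21.1 FPKM. SAGT1, for the glucosylation of salicylic acid, read 17.3 and 82.5 FPKM.

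Upstream of the branch, MYC2, which activates NAC019, NAC055 and RD26 in the jasmonate response, read 106 FPKM in wild type against 328 FPKM in the Atclb1-1 library. The abscisic acid response factors ABF2, ABF3 and ABF4 were all at least 2-fold higher. ABF2 read 12.1 and 25.5 FPKM, ABF3 15.3 and 59.9 FPKM, and ABF4 14.0 and 34.8 FPKM.

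ATAF1 and ATAF2 differed least after ORE1. ATAF1 (AT1G01720, also NAC002; TAIR10.1 chromosome 1, 267993 to 269819, plus strand), which activates ORE1 and represses GLK1, read 24.2 FPKM in wild type against 46.3 FPKM in the Atclb1-1 library. The ratio was 1.92, and the log2 difference of 0.91 became 1.01 with equal nuclear totals. ATAF2 (AT5G08790, also NAC081; chromosome 5, 2858849 to 2860558, minus strand), which links wounding and defence to brassinosteroid breakdown, read 90.4 and 107 FPKM, a ratio of 1.19. GLK1, given above, was 1.42-fold higher, which is within 2-fold, and the part of ATAF1 in that value was not tested.

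Genes linked to ATAF2 went in both directions. Of 7 measured, 3 were higher by 2-fold or more and 2 lower. On the log2 scale the median difference was 0.37. NIT2, a nitrilase gene of auxin synthesis that ATAF2 activates, read 1.17 FPKM in wild type against 355 FPKM in the Atclb1-1 library, a 302-fold higher value. PDF1.2A, a plant defensin gene, was lowest at 98.7 and 10.8 FPKM. The pathogenesis-related genes were split, with PR1 at 1298 and 2756 FPKM, PR4 at 74.2 and 171 FPKM and PR5 at 1382 and 516 FPKM. BAS1, which inactivates brassinosteroids and is repressed by ATAF2, read 1.73 and 1.40 FPKM.

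JUB1 (AT2G43000, also NAC042; TAIR10.1 chromosome 2, 17880457 to 17882636, minus strand) is induced by hydrogen peroxide and delays senescence when overexpressed. It read 3.79 FPKM in wild type against 15.0 FPKM in the Atclb1-1 library, 3.95-fold higher. Of 7 genes linked to it, none was higher by 2-fold or more and 2 were lower. The median log2 difference was -0.56. DREB2A, a drought factor gene that JUB1 activates, was lower at 75.7 and 23.5 FPKM, and RGL1, a DELLA repressor gene of gibberellin signalling, at 12.5 and 3.50 FPKM. DWF4, a brassinosteroid synthesis gene that JUB1 represses, read 7.43 and 3.22 FPKM, and PIF4, a growth regulator gene, 64.9 and 43.7 FPKM. GA3OX1, a gibberellin synthesis gene repressed by JUB1, read 1.03 and 1.83 FPKM, and HB13, an activator of JUB1, 3.45 and 3.32 FPKM. DREB2A, on the activated side of JUB1, and DWF4, on the repressed side, thus both had lower values beside a higher JUB1.

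VNI2 (AT5G13180, also NAC083; TAIR10.1 chromosome 5, 4196256 to 4197940, plus strand) restrains xylem vessel formation through VND7 and, in leaves, raises COR and RD genes that prolong leaf life. It read 78.4 FPKM in wild type against 217 FPKM in the Atclb1-1 library, a 2.77-fold higher value, the smallest fold of the 7 higher genes. Its level in the Atclb1-1 library was second to that of NAC019. The 3 of its listed target genes that passed the filter were all lower in that library. COR15B read 2156 and 188 FPKM, COR15A 2317 and 665 FPKM, and RD29A 784 and 88.0 FPKM. RD29B, at 0.16 and 0.743 FPKM, and VND7, at 0.942 and 0.924 FPKM, were under 1 FPKM in both libraries. VNI2 was thus higher beside lower values of COR15A, COR15B and RD29A.

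**Figure D3:**
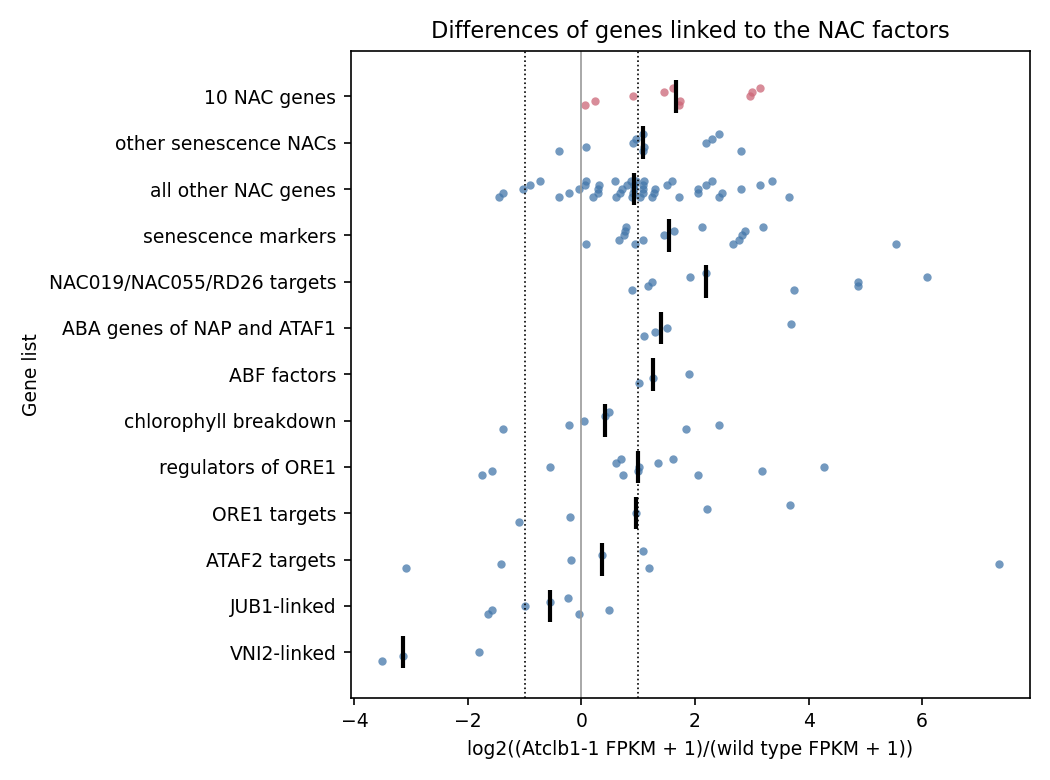
Log2 difference of each gene at 1 FPKM or more in a library (points), by gene list, with a black bar at the list's median, a grey line at 0 and dotted lines at 2-fold. The 10 NAC genes (red) have a median of 1.66, the genes linked to NAC019, NAC055 and RD26 one of 2.19, and the VNI2-linked genes one of -3.14.

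Markers of leaf senescence were higher beside the NAC genes. Of 16, 10 were higher by 2-fold or more and none lower, and their median log2 difference was 1.54. Among all loci that passed, 17.2% were that much higher and 10.8% that much lower, with a median of 0.21. SAG12, a cysteine protease gene restricted to late senescence, was listed at 0 in wild type and read 45.4 FPKM in the Atclb1-1 library. It passed the filter only through that library. SAG13 read 122 and 1124 FPKM. SEN4, an endotransglucosylase gene, read 11.4 and 89.9 FPKM, and WRKY75, a factor gene that promotes senescence, 2.69 and 25.1 FPKM. SAG18 was nearly level at 14.2 and 15.0 FPKM.

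The other NAC genes gave the family background, which includes further genes tied to senescence or stress. There were 105 such loci, of which 46 passed the filter, 21 were higher by 2-fold or more (45.7%) and 3 lower (6.52%). Of the higher genes, NAC004, NAC048, AT3G12910 and NAC076 passed only through the Atclb1-1 library. Of the lower genes, NAC097 and NAC088 passed only through wild type. On the log2 scale the median difference was 0.93. Among those that passed, the shares for all loci were 17.2% and 10.8%. The highest were NAC003 (AT1G02220) at 4.18 and 64.1 FPKM, NAC056 (AT3G15510), a regulator of seed shape, at 3.48 and 44.7 FPKM, and NAC004 (AT1G02230) at 0.645 and 13.6 FPKM. The lowest were NAC097 at 1.98 and 0.0912 FPKM, LOV1, a flowering regulator gene, at 18.1 and 6.31 FPKM, and NAC088 at 1.77 and 0.351 FPKM. The 10 genes had 7 higher of 10 and the other NAC genes 21 of 46, and no test of that difference was made.

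Among 11 NAC genes outside the set that are tied to senescence or stress, 7 were higher by 2-fold or more and none lower. All 11 also belong to the 105 loci above, and these 7 are part of the 21 higher genes there. The median log2 difference was 1.08. NAC090 read 5.95 FPKM in wild type against 48.0 FPKM in the Atclb1-1 library, NAC087 1.04 and 9.90 FPKM, NAC016, a senescence promoter, 1.08 and 9.22 FPKM, and NAC047, known for leaf movement under flooding, 4.18 and 22.6 FPKM. NAC032 and NAC102, relatives of ATAF1 and ATAF2, differed from each other. NAC032, at 8.93 FPKM in wild type, was 2.24-fold higher, and NAC102 read 109 and 82.7 FPKM.

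With 2 libraries, likeness to a gene is only a like difference. Only NAC genes outside the set were searched. Of these, the nearest to NAP was NAC004, with a log2 difference of 3.15, and 70 loci in all lay within 0.1 of NAP. The nearest to RD26 was NAC090 at 2.82, that to VNI2 was NAM at 1.51, and that to NAC019 was NTM1 at 1.60. AT3G12910 was nearest to both ORS1 and JUB1 at 1.72, and NAC004 to NAC055. Between 76 and 454 loci lay within 0.1 of each member named here other than NAP, so likeness of this kind is common.

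**Figure D4:**
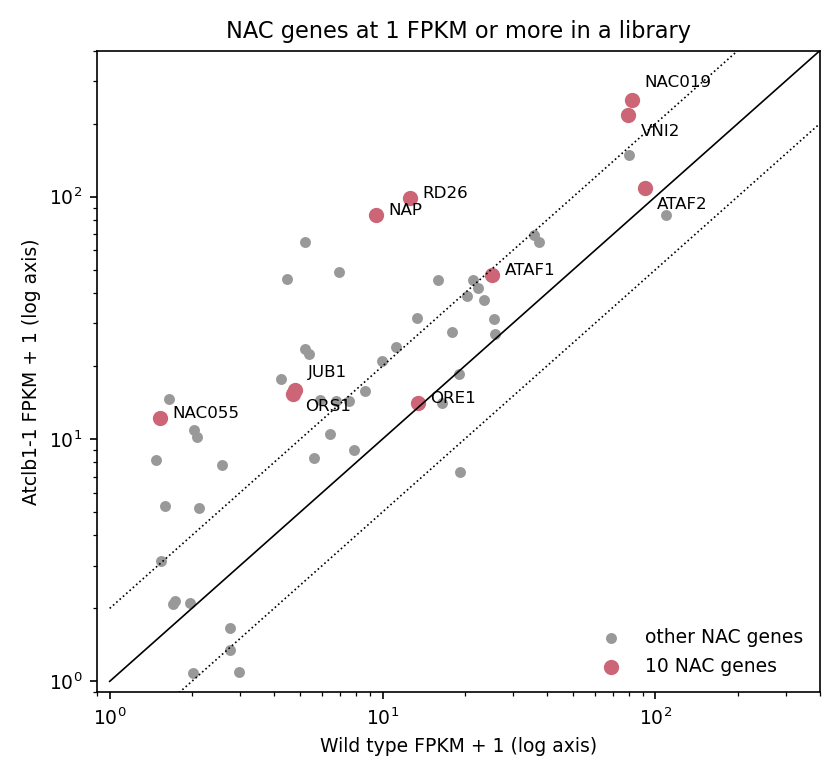
FPKM + 1 of NAC genes at 1 FPKM or more in a library, wild type against the Atclb1-1 library, both on log axes, with the 10 genes in red, 46 other NAC genes in grey, a solid line of equality and dotted lines at 2-fold. ATAF2 at 90.4 and 107 FPKM and ORE1 lie next to the line of equality, and 7 of the 10 genes lie above the upper dotted line.

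Promoters of NAP, NAC019, RD26 and VNI2 are shown because they hold the core of the abscisic acid response element, the site of the ABF factors described above. Each is the 250 bases before the annotated start of the gene in TAIR10.1, 5′ to 3′ on the strand of the gene, with matches to ACGTG on either strand in capitals.
NAP (chr1:26121830-26122079, plus strand): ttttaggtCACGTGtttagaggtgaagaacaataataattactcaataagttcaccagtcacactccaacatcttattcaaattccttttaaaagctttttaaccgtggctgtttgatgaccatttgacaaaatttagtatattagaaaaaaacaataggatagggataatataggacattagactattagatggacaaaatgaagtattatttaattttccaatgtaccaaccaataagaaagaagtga
NAC019 (chr1:19698483-19698732, minus strand): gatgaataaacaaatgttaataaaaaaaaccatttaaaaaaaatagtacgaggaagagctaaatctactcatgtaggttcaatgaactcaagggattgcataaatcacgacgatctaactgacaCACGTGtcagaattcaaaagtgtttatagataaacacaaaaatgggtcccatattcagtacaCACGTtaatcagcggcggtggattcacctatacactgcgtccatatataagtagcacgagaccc
RD26 (chr4:13709171-13709420, minus strand): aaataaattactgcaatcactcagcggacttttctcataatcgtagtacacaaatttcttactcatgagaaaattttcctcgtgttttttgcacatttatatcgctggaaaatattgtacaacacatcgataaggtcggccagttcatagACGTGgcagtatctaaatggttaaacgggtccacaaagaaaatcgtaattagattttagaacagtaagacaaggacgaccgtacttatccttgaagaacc
VNI2 (chr5:4196006-4196255, plus strand): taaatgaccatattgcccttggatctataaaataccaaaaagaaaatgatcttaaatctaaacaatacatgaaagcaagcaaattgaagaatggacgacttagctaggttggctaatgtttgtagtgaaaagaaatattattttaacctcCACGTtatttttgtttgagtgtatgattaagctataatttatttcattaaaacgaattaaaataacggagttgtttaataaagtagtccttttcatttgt

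ACGTG was present in 4 of 10 promoters of the set, in 29.5% of the 105 other NAC promoters and in 23.1% of 26686 promoters of protein-coding loci. The longer G-box CACGTG, which contains ACGTG on both strands and is also read by MYC and PIF factors, was present in NAP and NAC019 and in 6.57% of all promoters. TTGAC, the core bound by WRKY factors, was found in 5 of 10 and in 45% of all. Neither AAATATCT, the evening element, nor AAAAATCT, a CCA1 site, occurred in any of the 10 on either strand, against 4.84% and 6.74% of all promoters. ORE1 and ORS1 held none of the 5 motifs in this window. These matches are letters in a window and were not measured for binding.

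**Figure D5:**
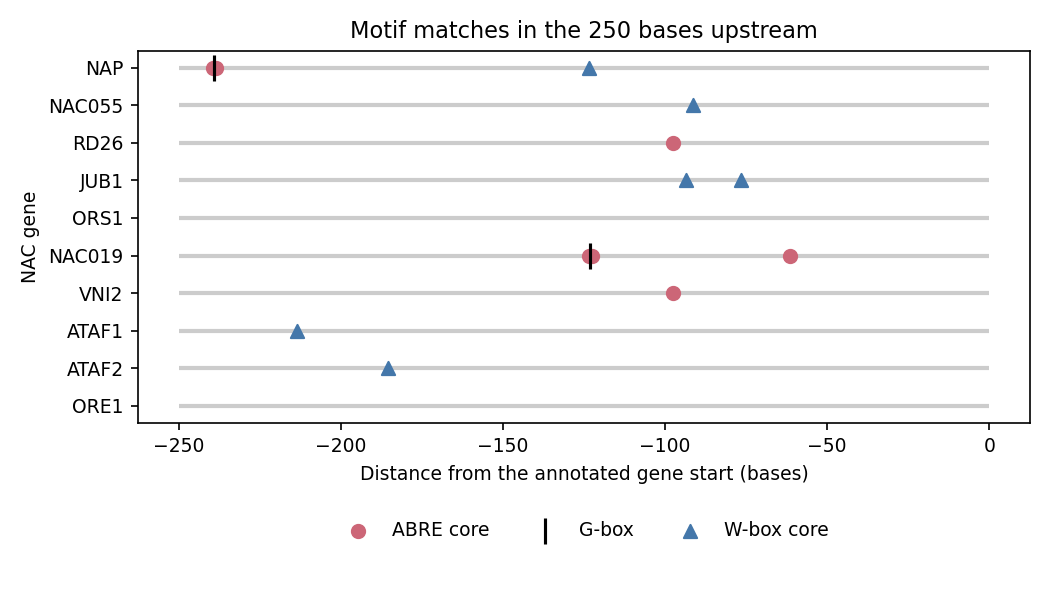
Matches on either strand to ACGTG (red circles, ABRE core), CACGTG (black bars, G-box) and TTGAC (blue triangles, W-box core) in the 250 bases before each annotated gene start, in bases from the start, with genes in the order of their log2 difference. NAP and NAC019 carry the only 2 G-boxes, and ORS1 and ORE1 are empty.

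Leaf identity held in both libraries. RBCS1A, for the small subunit of Rubisco, read 19812 FPKM in wild type against 8957 FPKM in the Atclb1-1 library. The 5 mesophyll genes summed to 32004 and 20395 FPKM, with RBCS1A as the largest part, and 2 of 5 were at least 2-fold lower. The list was mixed. CA1 read 2870 and 889 FPKM and CAB2 3914 and 2559 FPKM, while RCA was higher at 3643 and 6038 FPKM and LHCB2.1 at 1765 and 1951 FPKM. The 3 root hair genes were listed at 0 in both libraries. The 4 seed genes summed to 0.213 and 0.0908 FPKM and the 3 flower genes to 1.51 and 2.19 FPKM. Of the flower genes, 2 passed the filter. PI was higher by 2-fold or more, at 0.0635 and 1.36 FPKM, and passed only through the Atclb1-1 library. AG read 1.38 and 0.821 FPKM. The 4 guard cell genes summed to 190 and 91.0 FPKM with 2 lower and 1 higher, and 2 of 4 xylem genes were lower, summing to 48.3 and 24.3 FPKM. None of 3 phloem genes, at 626 and 617 FPKM in sum, reached 2-fold. The part of these cell type markers in the NAC values was not tested.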

How the data were processed

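The deposited table gives FPKM for 33557 loci, 1 column per library, in the unit named per the file headers. Per the submitters' processing notes the authors used TopHat 1.3.2 and Cuffdiff with the TAIR10 build. The sources used here do not give parameters, annotation release, read length or whether strand was used. Judged from steps between low FPKM values, depth was about 14300000 to 15400000 fragments for wild type, and 16700000 to 18200000 for Atclb1-1, which puts members at 12 fragments or more.

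Differences were computed with Python 3.11.15 and pandas 2.3.3 on a log2 scale with a pseudocount of 1, for loci reaching 1 FPKM in either library, and called at 2-fold. No test was possible with 1 library per genotype. Names, coordinates, transcripts and sequences came from RefSeq TAIR10.1, which matched 32810 of the 33557 identifiers. NAC genes were taken from its annotation. The computation was tested on simulated data.

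The members and lists were chosen with earlier results of these data known. Named were all members, up to 4 measured genes per list with the largest absolute difference, and lists of 5 or fewer in full. Also named were the 3 highest and 3 lowest other NAC genes. For each of the 7 members called at 2-fold, the nearest NAC gene outside the set was named. Cell type marker lists depart from that rule and are given as sums, with the mesophyll genes and the flower genes PI and AG also named. Genes were assigned to lists from general knowledge of the factors, not from sources used here. Further list genes, promoter motifs, the miRNA sites and gene neighbours were chosen after values were seen.

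The processing was varied with a pseudocount of 0.1 or 5, the median log2 ratio of 11724 loci set to 0, equal nuclear totals, no filter, a filter at 5 FPKM, removal of the dependence on transcript length and GC content, and a 4-fold call.

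ATAF1, ATAF2 and JUB1 overlap an opposite-strand protein-coding gene of the table at an end (AT1G01725, AT5G08780 and AT2G42990), and ATAF1 and VNI2 also an opposite-strand noncoding locus not analysed here, so their values are uncertain to that extent. The longest exact stretch shared by a member with another NAC transcript was 32 bases, between NAC055 and ATAF2. Values of NIT2, PDF1.2A, VSP1, VSP2, COR15A and COR15B are uncertain where reads could be divided among close copies.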

Additional observations from a re-analysis of the deposited data

How the results depend on the processing

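No paired analysis was possible because each genotype has 1 library. Of the 10 NAC genes, the number at least 2-fold higher stayed at 7 under 6 of the alternatives, was 8 with equal nuclear totals and 3 at a 4-fold call, and none was lower under any of the 8. The median of the 10 genes stayed above the 2-fold mark and reached 1.78 at most. No filter and the filter at 5 FPKM could not change the count of 7 or that median. They alter no difference, and all 10 genes were at 11.3 FPKM or more in the Atclb1-1 library. At 5 FPKM, ORS1, JUB1 and NAC055 passed only through that library. ORE1 changed sign, to -0.12 with the median ratio set to 0 (a shift of 0.21) and to -0.24 with the length and GC trend removed. The share of higher among all 2-fold calls was 61.5%, against 50.7% and 49.1% under those settings.

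Medians crossed the 2-fold mark as follows. With a pseudocount of 5, the abscisic acid genes gave 0.99 and the other senescence NAC genes 0.88. With the trend removed these gave 0.77 and 0.82, and the ORE1 stability genes changed sign to -0.11. With the median ratio set to 0 the other senescence NAC genes gave 0.89. With a pseudocount of 0.1, ORE1 targets gave 1.24, upstream regulators 1.06 and miR164 targets 1.18. With equal nuclear totals, ORE1 targets gave 1.04, GLK genes 1.07, upstream regulators 1.09 and all other NAC genes 1.02. With a filter at 5 FPKM these values were 2.21 for ORE1 targets, 1.01 for upstream regulators, 1.06 for miR164 targets and 1.02 for other NAC genes. At that filter SWEET15 and ACS2, among the ORE1 targets, passed only through the Atclb1-1 library, and RNS3 only through wild type. The miR164 targets were then only ORE1 and NAC1, and NAC1 passed only through the Atclb1-1 library. Several higher other NAC genes also passed only through that library, among them NAC003, NAC047, NAC016 and NAC087. The count of 21 higher other NAC genes was 12 with a pseudocount of 5 and 10 at 4-fold. With no filter, which adds genes near 0, the medians were 0.00 for other NAC genes (0.93 with the filter), 0.18 for miR164 targets (0.79) and -1.80 for VNI2-linked genes (-3.14). Causes of the other shifts were not tested. Depth limits NAC055 in wild type most, at roughly 12 to 13 fragments; its log2 difference ran from 1.56 with a pseudocount of 5 to 4.17 with one of 0.1.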

Other observations

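These neighbours were looked up after their values were seen. Some NAC genes of the set lie beside genes that also differed. Of 20 protein-coding neighbours of the 10 genes, 10 passed the filter, 5 were higher by 2-fold or more and none lower, against 17.2% higher and 10.8% lower among all loci that passed. Of these 5, AT1G52900 beside NAC019 (listed at 0 in wild type, 1.01 FPKM in the other library) and SWEET15 passed only through the library where they are high. NAC055 is followed on the same strand, 7235 bases away, by NAC056, at 3.48 FPKM in wild type against 44.7 FPKM in the Atclb1-1 library. NAC019 lies 6333 bases from NAM, at 14.9 and 44.3 FPKM. On one side of VNI2 lies AT5G13181, 811 bases away and listed at 0 in both libraries, and on the other SWEET15, 12901 bases away on the opposite strand, at 0.0519 and 12.5 FPKM. JUB1 and PIF4, which lie 3464 bases apart on opposite strands, differed in opposite directions, with PIF4 at 64.9 and 43.7 FPKM. Of the neighbours of ORE1, AT5G39600 read 14.2 and 14.9 FPKM, and RABG1 was listed at 0 in both libraries.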
